A study of Mus musculus with 23 samples.

Results

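Cells labelled HE2 after RUNX1-ETO had been induced were compared with haemogenic endothelium (HE) that had never been induced, to see what still separated HE2 under the fusion protein from the normal stage before it. The comparison took 6 of the 23 arrays of the series, which were the 3 labelled HE2 with Dox and the 3 labelled HE without, and all 15202 expressed genes. All cells came from the A2lox mouse ES cell line, in which a human RUNX1-ETO gene with an HA tag stands under a tetracycline-responsive promoter, beside the intact Runx1 gene, and which was picked as single colonies. The labels give the strain as C57BL/6. Flk1+ cells from embryoid bodies were put into blast culture, doxycycline (Dox) was added to the induced dishes at 0.1 µg per ml on day 1, and cells were sorted on day 2. HE was sorted as KIT+ Tie2+ CD41- and HE2 as KIT+ Tie2+ CD41+. The 3 arrays of a group are labelled as biological replicates, without saying what separates them. P values measure the spread between such arrays within groups, pooled over the 22 arrays of the fit. By their labels the uninduced HE arrays had neither Dox nor CD41 and the induced HE2 arrays had both, so that stage and Dox differ together between them. The transcript of CD41 went against the gate in these 6 arrays. Among arrays of the same Dox label its mean was higher in HE2 than in HE, and at either stage it was lower with Dox. The directions given here rest on the labels. The other 6 HE and HE2 arrays, 3 of uninduced HE2 and 3 of induced HE, therefore served as a second comparison, in which the stage runs the same way and Dox the opposite way.

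Blood cells of the early embryo arise from a flat endothelium that turns on RUNX1, loosens its junctions, acquires CD41, the platelet integrin alpha chain encoded by Itga2b, and rounds up into floating progenitors. The process is called the endothelial-haematopoietic transition. RUNX1 binds DNA with its partner CBFB and acts together with GATA, ETS and SCL factors on genes of the blood lineages. RUNX1-ETO, the product of the t(8;21) translocation of acute myeloid leukaemia, keeps the DNA-binding domain of RUNX1 and joins it to ETO (RUNX1T1), a protein that recruits corepressors.

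The arrays of the comparison were close in quality, except that uninduced HE array 3 had the most spots well above background, at 78.4%. Well above background were 64.7 to 78.4% of the spots on uninduced HE arrays and 66.1 to 68% on induced HE2 arrays, 0 spots were saturated, and Pearson's r between arrays of a group was 0.967 to 0.984 in uninduced HE and 0.966 to 0.989 in induced HE2, across genes. All 12 HE and HE2 arrays were scanned on one day. Uninduced HE arrays 1 and 2 and induced HE2 array 1 lay on one slide, and the other 3 on another. All 102 named genes that were called differed in the same direction on either slide alone. Their arrays did not overlap between the groups, so no other outcome was possible.

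Kit, Tek and Itga2b encode the sort markers, of which CD41 alone differed between the gates. Itga2b read 11.15, 9.49 and 11.46 on the log2 intensity scale in uninduced HE, which was sorted as CD41-, and 9.58, 10.75 and 7.73 in induced HE2, which was sorted as CD41+. The groups overlapped and the difference of -1.35 (s.e. 0.652, adjusted P = 0.193) was opposite to the gate, with a single probe for the gene. In the second comparison Itga2b was called higher in HE2, by 4.32. It read 7.53, 6.92 and 8.02 in induced HE and 11.72, 11.19 and 12.51 in uninduced HE2. Without Dox, HE2 differed from HE by 1.1 and was not called (adjusted P = 0.351 in limma). With Dox, the mean was 9.35 in HE2 and 7.49 in HE, with overlapping arrays, and this difference was not tested. The change with Dox was -3.21 in HE, which was called, and -2.46 in HE2, which was not. Tek, which encodes Tie2, read 11.26, 10.77 and 13.81 in uninduced HE and 12.97, 13.30 and 10.95 in induced HE2. Kit differed by 0.12 (adjusted P = 0.865), with overlapping arrays. Induced HE2 array 3 was the lowest of its group for Itga2b and Tek, and also for Pecam1, an endothelial adhesion molecule, at 8.97 against 10.52 and 11.00. Without it, 575 genes were called higher and 379 lower, in place of 695 and 394. Cdh5, which encodes VE-cadherin and defines endothelium, was high on every array, at 14.92 to 15.13 in uninduced HE and 14.42 to 14.76 in induced HE2.

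Of the 15202 genes, 695 (4.57%) were higher and 394 (2.59%) lower in induced HE2 than in uninduced HE, where a call took an unadjusted limma P no higher than 0.001 together with a 2-fold difference, with adjusted P values of at most 0.0111. The median change was 1.65 on the log2 scale among the higher genes and -1.62 among the lower ones, and the median over all genes was 0.00895. The arrays of the groups did not overlap for 691 of the higher genes and 389 of the lower, against 15.6% and 10.2% of all genes in these directions. The calls and the overlap come from the same arrays, so the overlap is no separate evidence for the calls. A further 214 genes passed 2-fold upwards and 303 downwards without passing the P value.

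The second comparison, which had no array in common with the first, called 784 genes (5.16%) higher and 1190 (7.83%) lower in uninduced HE2 than in induced HE. Both comparisons came from the same fit and shared its estimate of spread for each gene, so their calls are not independent. Of the 695 genes higher in induced HE2, 95 (13.7%) were higher there too, which is the direction in which both comparisons take the stage. Lower in the second comparison were 305 (43.9%), the direction of the Dox label. The remaining 295 (42.4%) were called in the first comparison alone. Of the 394 lower genes, 18 (4.57%) were lower in both comparisons, 66 (16.8%) were higher in the second, and 310 (78.7%) were called in the first alone. A call that the second comparison misses is not shown to be absent there.

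**Figure D1:**
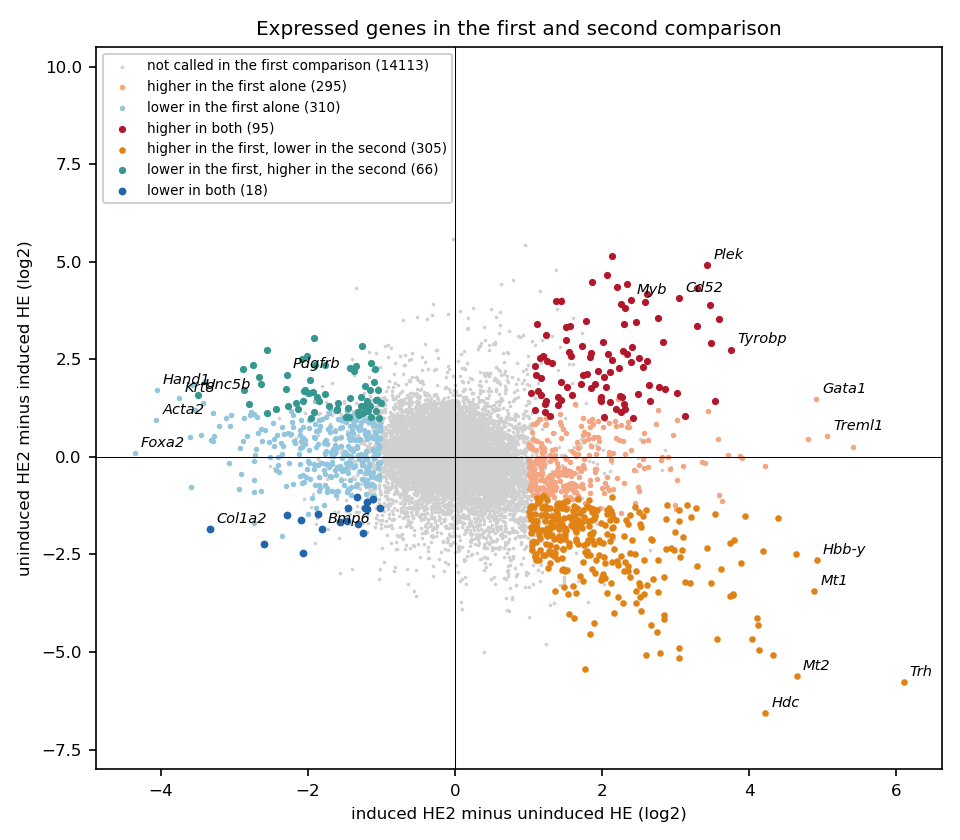
Each point is 1 of the 15202 expressed genes, with the log2 difference of induced HE2 and uninduced HE (3 arrays each) on the x axis and that of uninduced HE2 and induced HE (3 arrays each) on the y axis, coloured by the calls in the 2 comparisons. Among genes higher in induced HE2, 305 lie low on the y axis (Trh, Mt2 and Hdc at the end) and 95 lie high (Plek, Cd52).

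The largest rise was that of Trh, the precursor of thyrotropin-releasing hormone, a peptide of the hypothalamus. Trh read 7.70, 7.41 and 6.63 in uninduced HE and 13.22, 13.44 and 13.38 in induced HE2, a rise of 6.10 (s.e. 0.357, adjusted P = 8.82e-09) or 68.6-fold. Induced HE, at 12.76 to 13.80, was as high as induced HE2, and uninduced HE2, at 7.30 to 7.87, as low as uninduced HE. The metallothioneins, small proteins that bind zinc and other metals, were also among the 12 largest rises. Mt1 rose from 10.63, 10.69 and 9.51 to 15.23, 14.77 and 15.49, by 4.89 (s.e. 0.332, adjusted P = 2.49e-08). Mt2 rose from 9.51, 9.72 and 8.95 to 14.07, 13.53 and 14.51, by 4.65 (s.e. 0.285, adjusted P = 8.82e-09). No array of the one group came within 3 log2 units of the other for either gene. Both were lower in the second comparison, by 3.45 for Mt1 and 5.62 for Mt2, and induced HE stood above induced HE2 on all arrays for both. Uninduced HE2, at 9.26 to 9.63, was level with uninduced HE for Mt2, whereas for Mt1 it read 11.73 to 12.62, which is 1.97 above uninduced HE (adjusted P = 0.000811). Of the other 10 expressed genes for zinc handling, none was called higher. Slc30a1, the zinc exporter of the plasma membrane, fell by 1.21. Its call was lost without induced HE2 array 2 (-1.02) and without uninduced HE array 2 (-1.04) or 3 (-1.09).

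Metallothionein genes are known to be switched on by metals through MTF1, which binds metal response elements with the core TGCGCNC or TGCACNC. The promoters of Mt1 and Mt2, which lie next to each other, and of Trh are shown as the 250 bases before the start in RefSeq (GRCm38.p6), 5′ to 3′ on the strand of the gene, with matches to either core on either strand in capitals.
Mt1, chr8:94178839-94179088, plus strand: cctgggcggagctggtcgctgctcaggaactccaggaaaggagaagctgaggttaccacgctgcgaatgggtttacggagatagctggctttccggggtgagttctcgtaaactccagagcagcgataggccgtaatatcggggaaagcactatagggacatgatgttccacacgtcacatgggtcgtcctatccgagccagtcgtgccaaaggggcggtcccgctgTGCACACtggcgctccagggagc
Mt2, chr8:94172368-94172617, plus strand: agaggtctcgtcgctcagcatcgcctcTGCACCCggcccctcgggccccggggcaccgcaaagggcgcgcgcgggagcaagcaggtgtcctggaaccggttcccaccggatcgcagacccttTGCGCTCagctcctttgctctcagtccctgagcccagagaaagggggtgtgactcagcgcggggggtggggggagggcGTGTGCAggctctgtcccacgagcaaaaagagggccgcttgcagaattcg
Trh, chr6:92244651-92244900, minus strand: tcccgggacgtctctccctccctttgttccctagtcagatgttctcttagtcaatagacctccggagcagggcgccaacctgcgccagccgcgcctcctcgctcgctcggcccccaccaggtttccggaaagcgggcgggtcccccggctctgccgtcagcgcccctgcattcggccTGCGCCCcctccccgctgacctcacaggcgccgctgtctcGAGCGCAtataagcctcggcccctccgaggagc
Mt1 held 1 match, Mt2 3 and Trh 2. Such a match stood in 21.4% of all 32851 promoters of this length and in 27.7% of those of expressed genes, and in 25.1% of the promoters of genes higher and 31.2% of genes lower in induced HE2. The genes shown were chosen after their matches were seen.

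Other large rises, like that of Trh, ran against the direction of the second comparison. Ptprr, a receptor-type tyrosine phosphatase that acts on MAP kinases, rose by 4.33 (s.e. 0.265, adjusted P = 8.82e-09), from 6.71, 6.84 and 7.03 to 11.17, 10.59 and 11.79. Kcnj5, a subunit of an inwardly rectifying potassium channel, rose by 4.64 (s.e. 0.207, adjusted P = 2.78e-10), from 8.60, 8.84 and 7.93 to 13.00, 12.87 and 13.41. Hdc, the enzyme that makes histamine, rose by 4.22, from 9.30, 9.44 and 8.94 to 13.30, 13.21 and 13.82. The arrays of each of these genes were far apart between the groups, and all were lower in the second comparison, by 5.08 for Ptprr, 2.50 for Kcnj5 and 6.56 for Hdc. Spink8 (4.13), Nefh, the heavy neurofilament (4.12), and the integrin alpha chain Itga8 (3.74) rose likewise and were lower in the second comparison by 4.95, 4.30 and 3.56. In induced HE, which shares no array with induced HE2, Hdc stood at 14.29 to 14.72 and Spink8 at 10.72 to 11.44, above induced HE2, and Kcnj5, at 12.10 to 12.36, below it. Kcnj5 was also 1.29 higher in uninduced HE2 than in uninduced HE (adjusted P = 0.000525).

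RUNX proteins recognise TGTGGT, and TGCGGT as a second form. Of the genes with the 12 largest rises, 11 had a promoter in the table and 4 held one of these on either strand. Of those with the 12 largest falls, 7 had a promoter and 1 held it. A gene counted if any of its promoters held the motif, whereas the shares below are per promoter. Promoters that held it are shown for Kcnj5 and Ptprr, which rose, for Ankrd1, which fell, and for Gas6, which fell too, as the 250 bases before the start with the match in capitals. Ptprr has 4 promoters in the table and the one with the match is shown.
Kcnj5, chr9:32344345-32344594, minus strand: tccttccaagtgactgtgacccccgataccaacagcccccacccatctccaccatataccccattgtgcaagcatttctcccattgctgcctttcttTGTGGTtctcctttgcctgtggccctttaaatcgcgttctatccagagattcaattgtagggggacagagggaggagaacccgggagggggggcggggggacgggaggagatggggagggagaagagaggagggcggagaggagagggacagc
Ptprr, chr10:116018113-116018362, plus strand: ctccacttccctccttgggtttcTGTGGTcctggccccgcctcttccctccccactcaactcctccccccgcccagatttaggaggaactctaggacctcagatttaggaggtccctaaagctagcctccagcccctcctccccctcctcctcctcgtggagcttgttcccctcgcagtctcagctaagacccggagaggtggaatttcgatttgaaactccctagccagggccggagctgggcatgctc
Ankrd1, chr19:36119845-36120094, minus strand: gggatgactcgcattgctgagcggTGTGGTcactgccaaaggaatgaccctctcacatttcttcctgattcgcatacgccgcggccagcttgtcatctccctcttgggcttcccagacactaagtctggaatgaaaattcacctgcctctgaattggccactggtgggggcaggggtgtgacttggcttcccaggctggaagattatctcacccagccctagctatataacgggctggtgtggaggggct
Gas6, chr8:13494536-13494785, minus strand: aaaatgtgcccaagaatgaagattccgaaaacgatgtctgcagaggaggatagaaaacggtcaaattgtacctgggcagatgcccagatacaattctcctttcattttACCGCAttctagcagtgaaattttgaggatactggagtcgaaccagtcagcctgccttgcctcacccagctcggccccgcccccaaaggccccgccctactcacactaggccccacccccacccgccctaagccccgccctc
The motif stood in 17.4% of the promoters of expressed genes, in 19.9% of those of genes higher and 17.3% of genes lower in induced HE2. Among genes higher in the first and lower in the second comparison it stood in 16.3% of 307 promoters, and among genes higher in both in 27.2% of 92. These shares describe letters in a short window and were not tested, and the genes shown were chosen after their matches were seen.

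**Figure D2:**
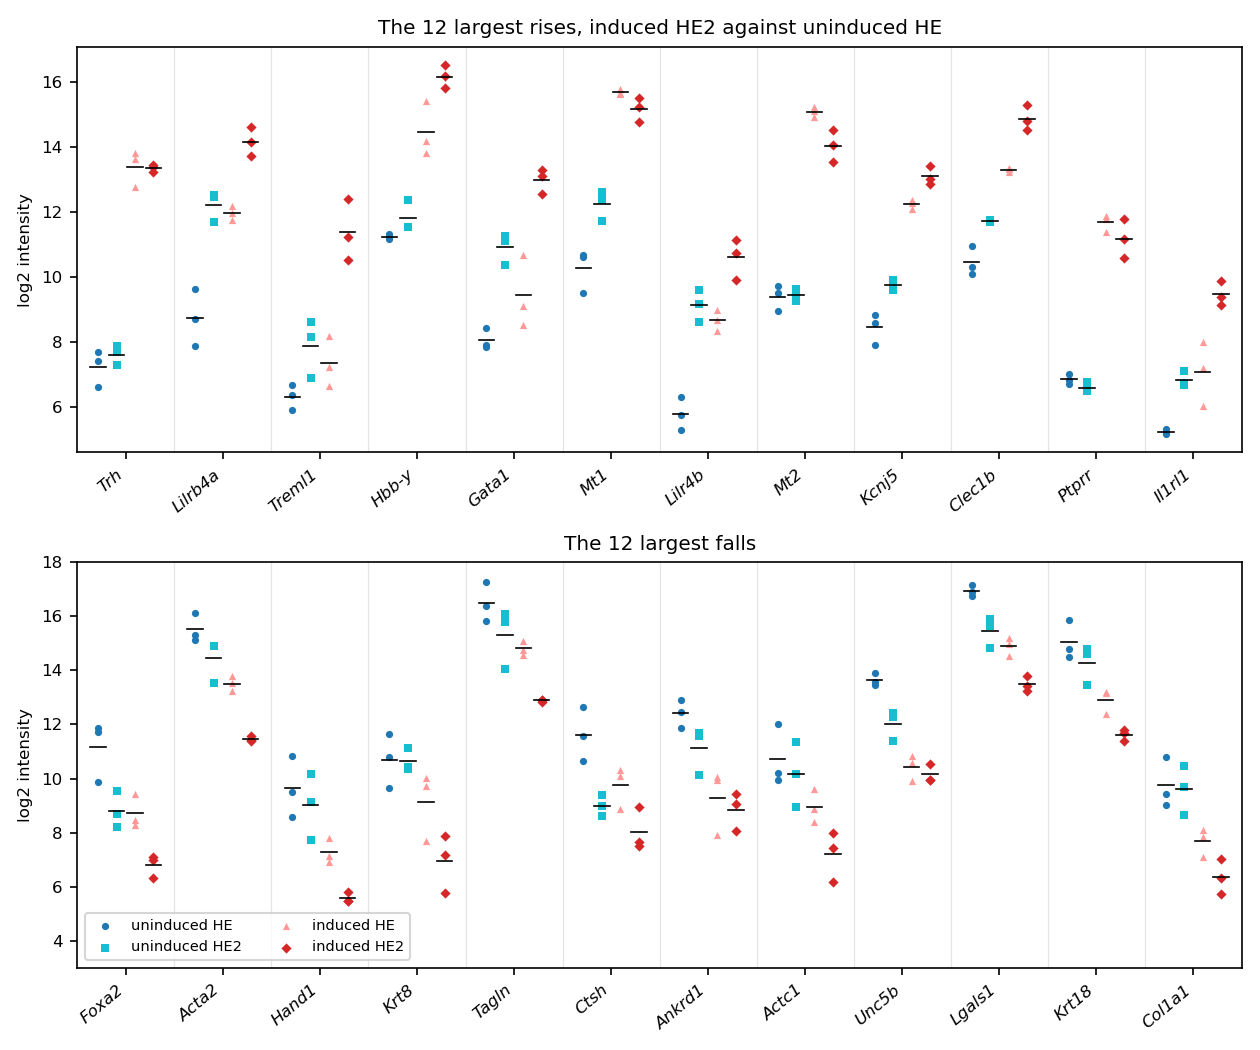
Log2 intensity of the 12 genes with the largest rises (top) and falls (bottom) on each of 3 arrays per group, with a bar at the group mean. Induced HE2 (diamonds) stands apart from uninduced HE (circles) for all 24 genes, as the choice of genes required. For Trh, Mt1, Mt2 and Ptprr induced HE lies near induced HE2, and for Gata1 and Treml1 induced HE2 is above all 3 other groups.

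Genes of the red cell and platelet lineages also stood among the largest rises. Gata1, the transcription factor required for both lineages, read 7.91, 8.43 and 7.86 in uninduced HE and 12.54, 13.11 and 13.28 in induced HE2, a rise of 4.91 (s.e. 0.385, adjusted P = 1.50e-07) or 30.0-fold. It was lower in the other groups, at 8.53 to 10.67 in induced HE and 10.38 to 11.25 in uninduced HE2. Of 16 erythroid and globin genes, 8 rose and 0 fell, against 4.57% and 2.59% of all genes, with a median of 1.19. The embryonic globin Hbb-y rose from 11.16, 11.24 and 11.31 to 15.81, 16.16 and 16.50, and Hbb-bh1 from 14.76 to 15.26 to 18.19 to 18.45, though near-identical globin transcripts may share signal between their probes. Alas2, the first enzyme of haem synthesis in red cells, rose by 3.13, and Epb42, a protein of the red cell membrane, by 2.56. Klf1, the erythroid Kruppel-like factor, rose by 1.24 and Epor, the erythropoietin receptor, by 1.51. Hbb-y, Hbb-bh1 and Alas2 were lower in the second comparison, by 2.65, 1.32 and 3.20, whereas Klf1 was higher there, by 1.43. Rhag, a surface protein of red cells, differed by 0.12 and was not called.

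Of 21 megakaryocyte and platelet genes, 11 rose and 1 fell, against 4.57% and 2.59% of all genes, with a median of 1.44. Treml1, a receptor of platelet granules, rose from 6.39, 6.69 and 5.92 to 10.54, 11.24 and 12.40, by 5.06 (s.e. 0.54, adjusted P = 3.75e-06). Clec1b, the podoplanin receptor of platelets, rose from 10.96, 10.32 and 10.10 to 14.78, 14.51 and 15.28, by 4.39 (s.e. 0.27, adjusted P = 8.82e-09). The groups did not overlap for either gene. Plek, the protein kinase C substrate of platelets (3.43), Mmrn1, multimerin (3.29), the integrin chain Itgb3, partner of CD41 (2.76), Gp5 (1.84) and Gp9 (1.56) of the von Willebrand factor receptor, Tubb1, the platelet tubulin (2.10), Nfe2 (1.44) and Rab27b (1.19) also rose. Thbs1 (thrombospondin 1) fell by 1.28, and the list held 0 lower genes without any 1 induced HE2 array or without uninduced HE array 2 or 3. Pf4, platelet factor 4, differed by 1.46 and did not pass the test, and Itga2b itself, at -1.35, was below 0 while most of its list was above. In the second comparison Plek, Mmrn1, Itgb3, Gp9 and Nfe2 were higher too, Clec1b was lower by 1.57, and Treml1 (0.53) and Tubb1 (0.05) were not called.

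Genes of white cells were among those higher in both comparisons. Cd52, a small surface glycoprotein of leukocytes, read 6.17, 5.69 and 5.37 in uninduced HE and 9.38, 8.22 and 8.77 in induced HE2, a rise of 3.04, and 4.07 in the second comparison. Sla, a Src-like adaptor of blood cells, rose from 6.56, 6.37 and 6.45 to 9.83, 10.19 and 9.77, by 3.47 and by 3.88 in the second. Pla2g4a, cytosolic phospholipase A2, rose by 3.29, and Clec4d, a C-type lectin of myeloid cells, by 3.59, from a level at which 2 of 3 uninduced HE arrays were above background. The groups did not overlap for any of these. Of 28 pan-leukocyte genes, 13 rose and 0 fell, 46.4% called against 7.16% of all genes, with a median of 1.06, and 1 to 3 fewer were called without any 1 of the 6 arrays. The largest was Tyrobp, the ITAM adaptor DAP12, at 3.76 (s.e. 0.354, adjusted P = 1.13e-06), from 7.58, 6.71 and 6.14 to 11.06, 10.02 and 10.62. The tyrosine kinase Btk rose by 2.34, the integrin chain Itga4 by 2.30, Coro1a (coronin) by 2.28 and the signalling genes Vav1, Rac2 and Inpp5d by 1.38 to 1.44. With the mean of their probes Btk rose by 1.5 and Itga4 by 1.37, both still called. Ptprc, the leukocyte common antigen CD45, differed by -0.16 and Itgam (CD11b) by -0.51, neither past the test.

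Receptors that share subunits or signals with these lineages rose as well. Of 15 haematopoietic cytokine receptors 7 were higher and 0 lower, 46.7% called against 7.16% of all genes. Il1rl1, the interleukin-33 receptor, rose by 4.22, with its other probes as low as 1.20 and 1 of 3 uninduced HE arrays above background. Csf2rb2 (8.56-fold, and 2.53 on the log2 scale with the mean of its probes) and Csf2rb (6.79-fold, with its probes between 0.89 and 2.76 on the log2 scale), the near-identical beta chains of the interleukin-3 and GM-CSF receptors whose probes may share signal, and Il6ra (2.66), the interleukin-6 receptor, rose too. The second comparison called Il6ra (1.42) higher and did not call Il1rl1 (-0.23) or Csf2rb2 (-0.24). The inhibitory receptors Lilrb4a and Lilr4b, again a pair of close relatives, rose by 5.41 and 4.80. Lilrb4a read 9.64, 8.70 and 7.90 in uninduced HE, 11.69 to 12.53 in uninduced HE2, 11.76 to 12.19 in induced HE and 14.61, 13.71 and 14.15 in induced HE2, so that the groups with the stage or Dox alone lay between.

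**Figure D3:**
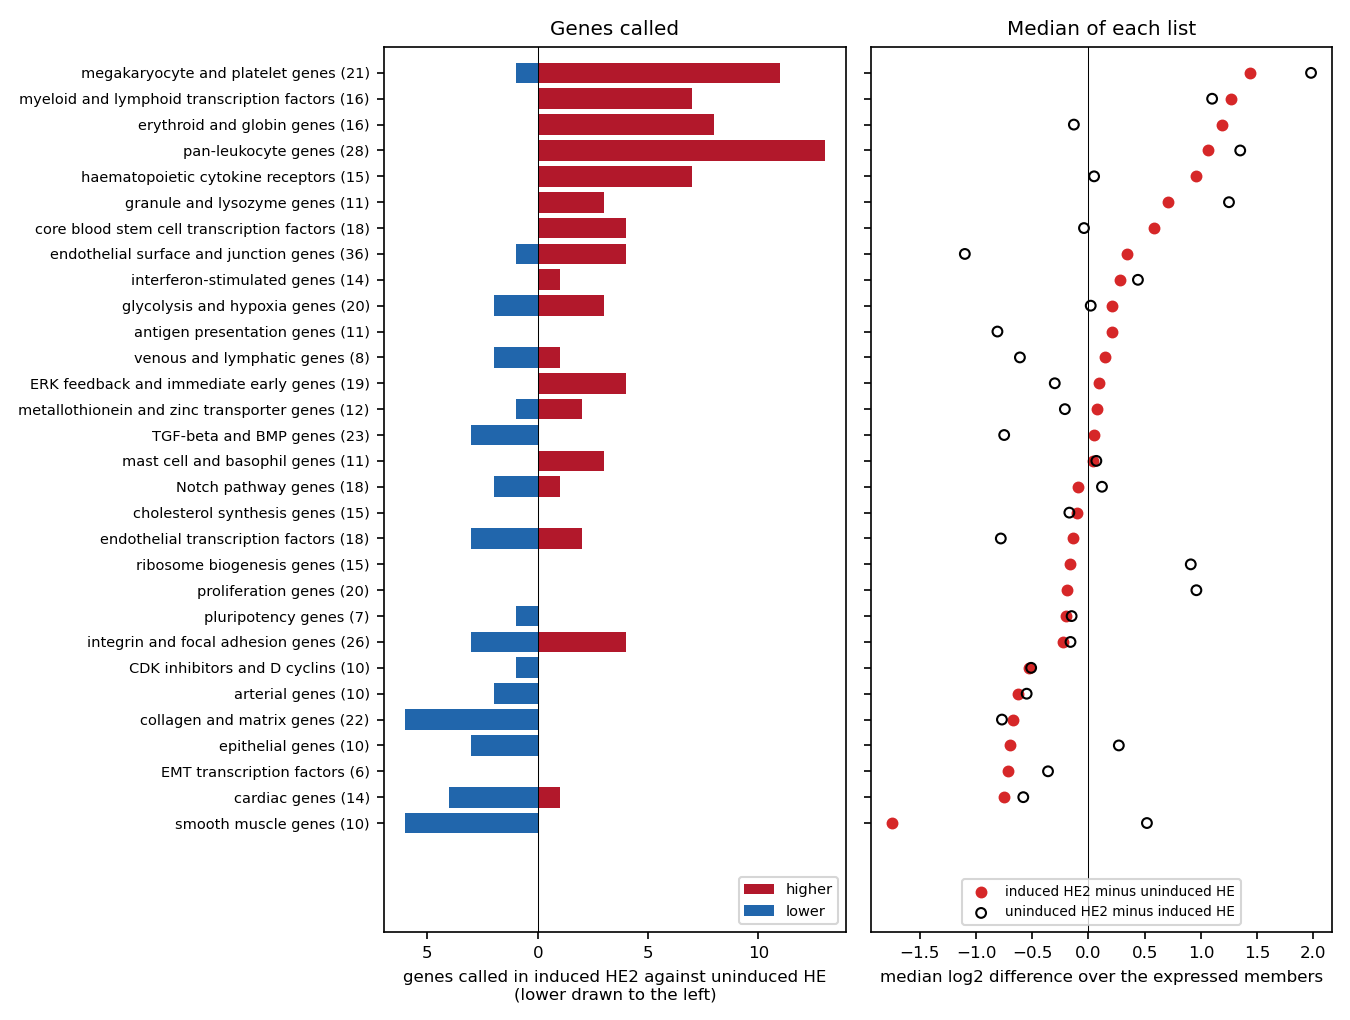
Left, number of genes of each list called higher or lower in induced HE2 than in uninduced HE, with the number of expressed members in brackets. Right, median log2 difference of the list in that comparison (filled) and in uninduced HE2 against induced HE (open). Megakaryocyte genes (11 higher, 1 lower) stand at the top and smooth muscle genes (0 higher, 6 lower) at the bottom.

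Of 18 core transcription factors of blood stem cells, 4 were higher and 0 lower in induced HE2 than in uninduced HE, against 4.57% and 2.59% of all genes, and their median was 0.58, with 13 above 0 and 5 below. The 4 were Runx1, Gfi1b, Myb and Hhex. Runx1 rose from 11.06, 11.32 and 9.89 to 12.47, 12.82 and 12.93, by 1.99 (s.e. 0.355, adjusted P = 0.000672), a call that a fit of these 6 arrays alone did not make. Gfi1b, the repressor that silences endothelial genes, rose from 10.87, 11.02 and 9.62 to 12.57, 13.11 and 13.35, by 2.50 (s.e. 0.3, adjusted P = 1.21e-05). Myb, required for definitive blood progenitors, rose from 9.86, 9.67 and 8.84 to 11.87, 11.85 and 11.83, by 2.39 (s.e. 0.326, adjusted P = 4.39e-05). In each the groups were apart, and each was higher in the second comparison too, by 1.53, 2.52 and 4.01. Ikzf1, the lymphoid and myeloid factor Ikaros, rose by 2.02 (1.21 with the mean of its probes) and its relative Ikzf2 by 1.79. Both were higher in the second comparison, by 2.93 and 2.12. Maf rose by 2.52 and Hhex by 1.23 but were lower in the second, by 3.59 and 1.28.

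Myeloid regulators stood at another level. Spi1, which encodes PU.1, read 5.71, 5.01 and 5.68 in uninduced HE and 5.79, 7.16 and 5.14 in induced HE2, with 2 of 3 arrays above background in either group. The difference of 0.56 (adjusted P = 0.36) did not pass the test, whereas uninduced HE2 read 8.60 to 8.88, and the second comparison gave 3.59. Cebpb differed by 1.38 (s.e. 0.429, adjusted P = 0.0358), a value past an adjusted P of 0.05 and not past the threshold used here, with arrays that did not overlap. It gave 4.79 in the second comparison. Cebpa differed by 0.68 (adjusted P = 0.305). Mpo, the peroxidase of myeloid granules, rose from 10.33, 9.92 and 9.24 to 11.30, 11.89 and 11.90, by 1.87, and Lyz1, a lysozyme, by 2.59, while uninduced HE2 was higher again, at 12.82 to 13.68 for Mpo. Irf8 rose by 1.68. Of the 16 myeloid and lymphoid factors, 7 rose and 0 fell, 43.8% called against 7.16% of all genes.

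Tal1 (SCL) was higher by 0.88 (adjusted P = 0.000506), under 2-fold, with arrays that did not overlap. Gata2 (0.22), Cbfb (-0.01), Gfi1 (0.80) and Lmo2 (0.89) were not called. Runx1t1, the gene of ETO, read 10.56, 11.14 and 10.72 in uninduced HE and 11.51, 11.92 and 12.46 in induced HE2. That is a difference of 1.16 (s.e. 0.335, adjusted P = 0.0244), which did not pass the threshold although the arrays did not overlap. It was called in the second comparison, at -2.17. The transgene is human, and whether the mouse probe reads it was not tested.

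**Figure D4:**
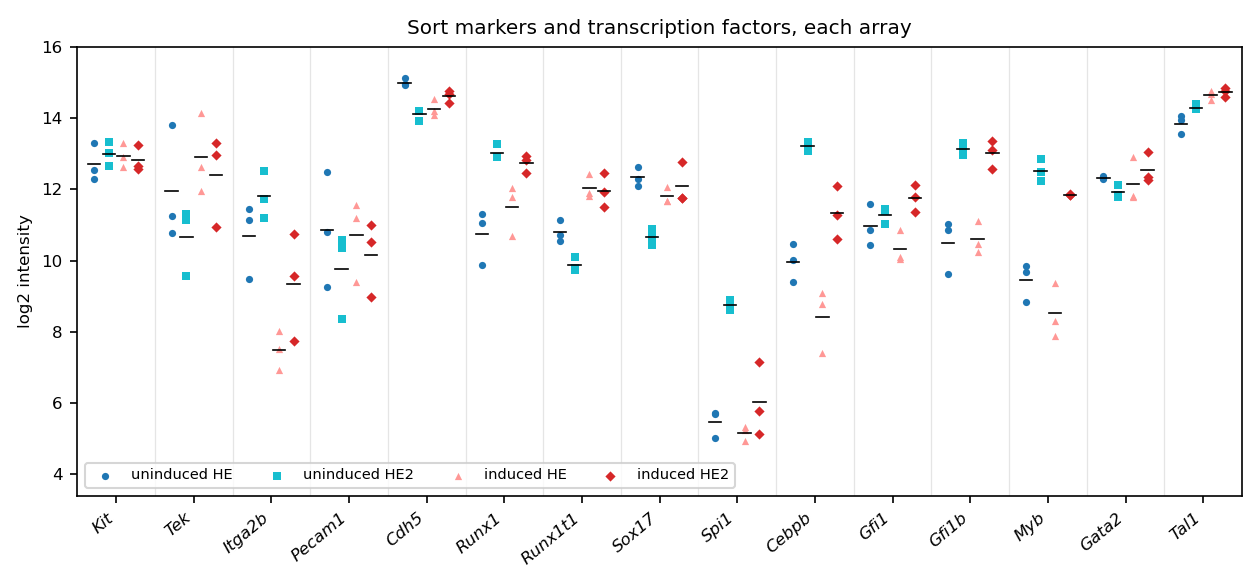
Log2 intensity of sort markers, endothelial markers and transcription factors on each of 3 arrays per group, with a bar at the mean. Itga2b in induced HE2 (diamonds, 7.73 to 10.75) overlaps uninduced HE (circles, 9.49 to 11.46), Runx1, Gfi1b and Myb in induced HE2 lie above uninduced HE, and Spi1 and Cebpb reach their highest levels in uninduced HE2 (squares).

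The endothelial programme was compared next. Of 36 endothelial surface and junction genes, 4 were higher and 1 lower in induced HE2 than in uninduced HE, 13.9% called against 7.16% of all genes, with a median of 0.34. The higher ones were Lyve1, the hyaluronan receptor of lymphatic and yolk sac endothelium (2.23), Procr, the protein C receptor (1.31), Cd34 (1.26, and 0.95 and not called with the mean of its probes) and Mmrn2 (1.16). Nos3, the endothelial nitric oxide synthase, fell by 1.94. Leaving out 1 array moved these counts. They were 2 higher and 2 lower without induced HE2 array 3, 5 higher and 0 lower without induced HE2 array 1, 3 and 0 without induced HE2 array 2, 4 and 0 without uninduced HE array 3, and 2 higher and 1 lower without uninduced HE array 1 or 2. Procr lost its call without induced HE2 array 3 or uninduced HE array 1 (1.02 each) and without array 2 of either group (1.40 each), and Nos3 without induced HE2 array 1 (-1.68) or 2 (-1.78) or uninduced HE array 3 (-1.73). Cdh5 (-0.38), Kdr, the VEGF receptor FLK1 (0.32), Tie1 (-0.27) and Eng (-0.14) were not called. Cldn5 (1.81) and Emcn (1.82) were past 2-fold and not past the P value.

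In the second comparison, which called 13% of all genes, 14 of the same 36 genes were lower and 1 higher, with a median of -1.10. Uninduced HE2 against uninduced HE, a contrast that shares the uninduced HE arrays with the first, gave 10 lower and 0 higher and a median of -0.94, beside 2.67% lower and 2.39% higher (5.07% in all) among all genes. Induced HE against uninduced HE, which shares them too, gave 4 higher and 1 lower and a median of 0.35, beside 4.7% and 2.39% (7.09% in all). Sox17, which marks HE and arterial endothelium, read 12.09, 12.29 and 12.63 in uninduced HE and 11.75, 11.76 and 12.77 in induced HE2, a difference of -0.24 (s.e. 0.301, adjusted P = 0.674) with overlapping arrays, and 10.45 to 10.90 in uninduced HE2. Of 18 endothelial transcription factors, Foxc1 (1.74) and Hhex (1.23) rose and Foxc2 (-2.30), Nr2f2, the venous factor COUP-TFII (-1.54), and Etv2 (-1.38) fell. Etv2 lost its call without induced HE2 array 2 (-1.38) or 3 (-1.24) and without uninduced HE array 1 (-1.21) or 2 (-1.33). Of 10 arterial genes 2 fell and 0 rose, 20% called, beside 27.8% of the endothelial factors and 7.16% of all genes. Gja4 (connexin 37) was at -1.41 and Unc5b, the netrin receptor, at -3.50, and Dll4 (-1.40) and Gja5 (-1.16) not past the P value.

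Smooth muscle genes were among the largest falls. Acta2, smooth muscle actin, read 15.11, 16.12 and 15.32 in uninduced HE and 11.38, 11.42 and 11.56 in induced HE2, a change of -4.06 (s.e. 0.434, adjusted P = 3.75e-06) or 16.7-fold. Tagln (SM22) read 16.40, 17.27 and 15.83 and then 12.92, 12.84 and 12.92, a change of -3.61. In both the 3 uninduced HE arrays were more than 2 log2 units above any induced HE2 array. Of 10 smooth muscle genes 6 fell and 0 rose, against 2.59% and 4.57% of all genes, with a median of -1.75, and Cnn1 (calponin, -3.22), Myl9 (-2.87), Pdgfrb (-2.29) and Smtn (-1.21) were the other 4. The 6 calls stood without any 1 of the 6 arrays. In a sorted population fewer cells of a type and less RNA per cell cannot be told apart. The mean level of the 10 genes was 11.22 to 11.67 in uninduced HE, 10.20 to 11.06 in uninduced HE2, 10.58 to 10.80 in induced HE and 9.32 to 9.66 in induced HE2, and Myh11, Myocd and Lmod1, which are more specific to smooth muscle, were below the level filter on all arrays. Whether cells of another kind have a part in these falls was not tested.

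Cardiac, epithelial and matrix genes followed. Hand1, a factor of lateral mesoderm and heart, fell from 9.50, 10.85 and 8.56 to 5.81, 5.46 and 5.45, a change of -4.06 (s.e. 0.505, adjusted P = 1.76e-05), with 2 of 3 induced HE2 arrays above background. Actc1, cardiac actin, fell by 3.53, Myh7 by 2.08 and Myl4 by 1.56, which lost its call without induced HE2 array 1 (-1.44) or 2 (-1.43) or uninduced HE array 2 (-1.06). Tbx5 rose by 1.13, except without uninduced HE array 1, when the list held 0 higher genes, and Nkx2-5 (-1.57) and Gata4 (-0.87) were not called. Of 14 cardiac genes 4 fell and 1 rose, 35.7% called against 7.16% of all genes. The mean level of the list was 9.06 to 9.62 in uninduced HE and 8.24 to 8.34 in induced HE2. The keratins Krt8 and Krt18, which pair in simple epithelia and trophoblast, fell by 3.76 and 3.42. Krt8 read 10.80, 9.65 and 11.66 and then 7.18, 7.88 and 5.78, without overlap. Dsp (desmoplakin) fell by 1.97, a call lost with the mean of its probes (-0.88), and the defining epithelial genes Epcam and Cdh1 were below the level filter. The mean level of the 10 expressed epithelial genes was 8.91 to 9.02 in uninduced HE and 7.64 to 7.80 in induced HE2.

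**Figure D5:**
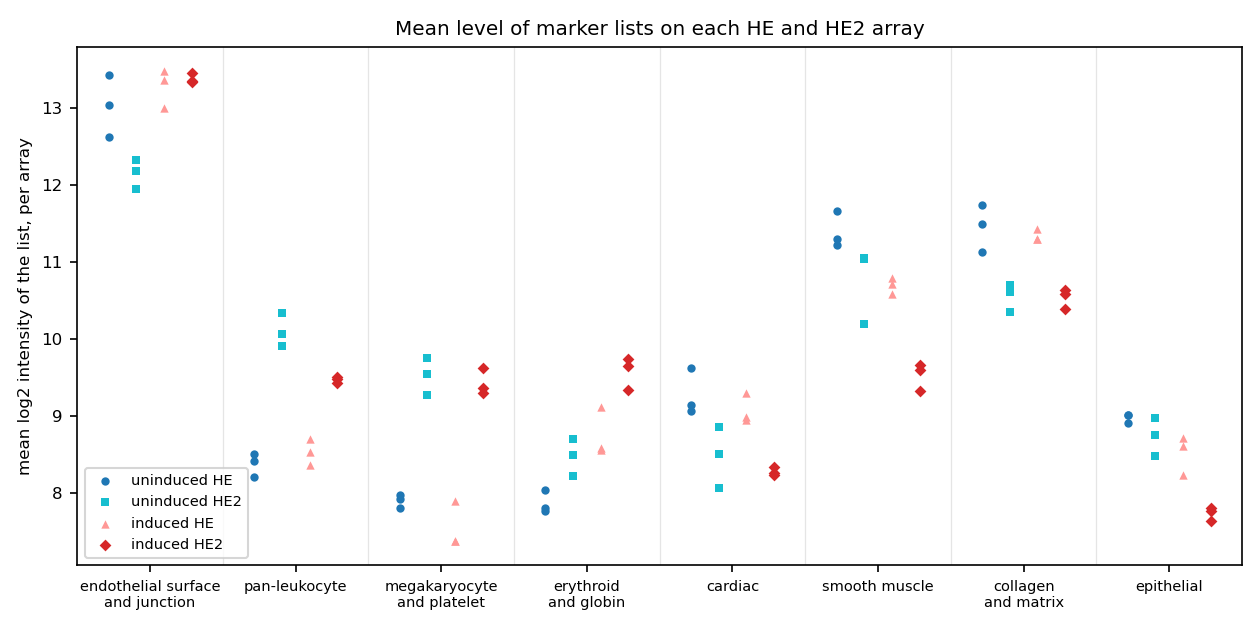
Mean log2 intensity over the expressed members of 8 lists on each of 3 arrays per group. Induced HE2 (diamonds) has the lowest smooth muscle (9.32 to 9.66) and epithelial (7.64 to 7.80) levels of the 4 groups and the highest erythroid levels (9.34 to 9.74), and its endothelial level lies with HE and above uninduced HE2 (squares).

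Collagens of mesenchyme fell strongly. Col1a1, which fell by over 3 on the log2 scale, is among the 12 largest falls and Col1a2 fell 10.1-fold, with Col1a2 at 13.11, 14.67 and 15.14 in uninduced HE and 10.26, 11.41 and 11.25 in induced HE2, and Fbn1 (fibrillin, -2.20), Lamb1 (-1.91), Col5a1 (-1.70) and Col4a2 (-1.56) were also called. Of 22 matrix genes 6 fell and 0 rose, 27.3% called against 7.16% of all genes. Without uninduced HE array 3 the falls numbered 4. Fn1 (0.04) and Sparc (-0.01) did not differ beyond 0.1. Foxa2, a factor of endoderm and node, had the largest fall of all, from 9.88, 11.86 and 11.73 to 6.33, 7.08 and 6.99, a change of -4.35 (s.e. 0.456, adjusted P = 3.20e-06), and lay between, at 8.20 to 9.55, in uninduced HE2 and induced HE. Lgals1, galectin 1, read 16.89, 17.16 and 16.76 and then 13.80, 13.24 and 13.41, a change of -3.45. Ctsh, a lysosomal protease (-3.59), and Ankrd1, a cardiac and stress-induced nuclear protein (-3.58), were the others among the 12 largest. Of the 12, Unc5b alone was called in the second comparison, at 1.59. Lin28a, which keeps early cells undifferentiated, fell by 2.21 from 13.64 to 14.68, while Pou5f1, Sox2 and Zfp42 were below the level filter.

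Genes that were lower in induced HE2 and higher in the second comparison, and so lower with the Dox label in both, included several secreted and signalling proteins. Gas6, the ligand of the TAM receptors, read 14.71, 15.15 and 15.06 in uninduced HE and 12.05, 12.75 and 12.45 in induced HE2, a change of -2.56 (s.e. 0.301, adjusted P = 1.03e-05), and gave 2.73 in the second comparison. Cx3cl1 (fractalkine) fell by 2.08 and gave 2.50, and the chemokine Ccl17 fell by 2.88 and gave 2.24. The arrays of the groups were apart in all of them. Pdgfrb, the PDGF receptor of mural cells, was at -2.29 (2.10 in the second), Glipr1 at -2.74 (2.35), with 2 of 3 induced HE2 arrays above background, and Batf3, a factor of dendritic cells, at -2.66 (2.06). Notch2 fell by 1.08 and gave 1.45 in the second, a call lost with the mean of its probes (-0.82) and without array 1 (-0.99) or 2 (-0.97) of induced HE2 or array 2 of uninduced HE (-0.88).

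The 18 genes lower in both comparisons were the smallest class. Bmp6, a bone morphogenetic protein, read 11.55, 11.69 and 11.93 in uninduced HE and 9.74, 10.21 and 9.78 in induced HE2, a change of -1.81 (s.e. 0.284, adjusted P = 0.000182), and -1.85 in the second comparison. Slco2a1, the prostaglandin transporter, fell by 2.07, Cryab, a small heat shock protein, by 2.59, Plcd1 by 2.10 and Bcam, a laminin receptor, by 1.56, which lost its call without uninduced HE array 3 (-1.26). Cryab was highest in induced HE, at 14.67 to 15.10. The class held 7 genes without uninduced HE2 array 3, 11 without induced HE array 2 and 26 without uninduced HE array 1 or induced HE2 array 3.

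Signalling and adhesion lists were mixed. The shares called among all genes were 4.57% higher and 2.59% lower. Of 26 integrin and focal adhesion genes 4 rose and 3 fell. The integrin chains Itga8 (3.74), Itgb3 (2.76), Itgb7 (2.47) and Itga6 (2.03) were higher, and Itgb5 (-3.29), Parva, a focal adhesion adaptor (-2.92), and Actn1, an actin crosslinker (-2.62), were lower. Of 19 ERK feedback and immediate early genes 4 rose, Spry1 (2.05), Egr2 (1.68), Spry2 (1.17, 0.98 and not called without uninduced HE array 3) and Dusp2 (1.14), and 0 fell. Of 18 Notch genes Mfng, which modifies Notch receptors with sugars, rose by 2.39 and Notch3 fell by 1.57 beside Notch2. The 2 falls were 0 without induced HE2 array 1 or 2. For Notch3 the value was -1.59 and -1.40 without them, and its call was also lost without uninduced HE array 1 (-1.53) or 2 (-1.33).

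Of 20 proliferation genes, 0 passed in limma, and 5 (25%) were lower and 0 higher at an unadjusted P below 0.05, against 11.3% and 15.7% of all genes, with a median of -0.19. In the second comparison 8 of the 20 were higher in uninduced HE2, against 5.16% of all genes, and their median was 0.96. Mki67 differed by -0.12 and Top2a by -0.12 in the first, and Pcna by 0.31. Of 15 ribosome biogenesis genes 0 were called in the first comparison by limma (2 lower, or 13.3%, and 0 higher at an unadjusted P below 0.05). In the second 3 were higher, where 5.16% of all genes were. Of 10 CDK inhibitors and D cyclins 1 was called, 10% against 7.16% of all genes. Cdkn2b, the CDK inhibitor p15, was lower by 1.41 and lost its call with the mean of its probes (-0.98) and without induced HE2 array 1 (-1.30) or 3 (-1.39) or uninduced HE array 2 (-1.10). Ccnd1, cyclin D1, was lower by 2.43 and did not pass the P value.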

How the data were processed

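RNA of sorted cells was labelled with Cy3 and hybridised to Agilent SurePrint G3 Mouse arrays in 1 colour. The authors deposited the median intensity and local background of each spot from Feature Extraction (10.7.3.1 per the file headers), without normalization between arrays, and also log2 values per array, background corrected and quantile normalized, which served as an alternative. Columns of values with no array of their own numbered 0.

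Intensities were corrected with normexp (offset 16), outlier and control spots left out, and 23 arrays quantile normalized. Of 55681 probes, 26582 had a symbol through RefSeq accessions (GRCm38.p6, names only), for 20145 genes. The brightest probe stood for a gene, and 15202 genes at a log2 of at least 6.5 on 1 array were tested. With limma 3.58.1 in R 4.3.3, 22 arrays were fitted with 1 coefficient for each group (14 residual degrees of freedom), with Benjamini-Hochberg adjustment. Fold changes come from log2 differences. A level is never compared between probes. An extra uninduced progenitor array was normalized and not fitted. The number of arrays limits the precision. The fit was tested on simulated data.

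The members and lists were chosen with earlier results of these data known. Named genes were the 12 largest rises and falls with arrays that did not overlap, 6 per class of the 2 comparisons, up to 4 called genes per list and a fixed set of sort markers and regulators. Other genes of a list were named to describe it. The rule gave 117 genes. Of the list members, 31 were below the level filter and 2 had no named probe. Alternatives covered background, scaling, filters, probes, thresholds, fits, blocks and single arrays. Some items are not reported here.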

Additional observations from a re-analysis of the deposited data

Results flagged for a closer look

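For 12 of the 117 named genes the change with Dox was not the same at both stages by a test of the interaction in limma at an adjusted P of at most 0.05. Many named genes were chosen by differences on these same arrays. The share of all genes past this threshold is not given, so the count cannot be set against it. The difference is the log2 change with Dox in HE2 minus that in HE, each over 3 arrays a side. It was -3.07 for Tyrobp (-1.03 in HE2, 2.04 in HE, adjusted P = 0.00862), -2.26 for Ikzf1 (-1.58 and 0.67, 0.00862) and -2.44 for Spi1 (-2.73 and -0.30, 0.0297). It was -2.20 for Cd52 (-1.61 and 0.58, 0.0342), -1.83 for Pla2g4a (-1.43 and 0.39, 0.0342) and -1.70 for Btk (-0.99 and 0.70, 0.0332). Of the changes with Dox in HE, that of Tyrobp passed the threshold, and those of Ikzf1, Spi1, Cd52, Pla2g4a and Btk did not. In uninduced HE the means of these were 6.28, 5.47, 5.75, 6.17 and 5.71, under the log2 of 6.5 of the level filter. Spi1 was above background on 2 of 3 uninduced and 1 of 3 induced HE arrays. A fall with Dox could hardly be seen from such levels, so for these genes the test cannot separate stage from a low starting level. Among genes higher with Dox at both stages it was -2.49 for Mt1 (2.92 and 5.41, adjusted P = 0.0173) and -1.57 for Spink8 (3.76 and 5.33, 0.0415), a smaller change in HE2. Among endothelial genes it was 2.16 for Gas6 (-1.56 and -3.72, adjusted P = 0.0203), 2.00 for Gja4 (-0.02 and -2.02, 0.0118), 1.95 for Sox17 (1.42 and -0.53, 0.0342) and 1.26 for Nr2f2 (-0.52 and -1.78, 0.0474).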

How the results depend on the processing

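All 102 called named genes kept their direction under every alternative run, and 79 of them were called under all but an adjusted P of 0.001, while 15 lost the call when 1 array was left out. An adjusted P of 0.001 left 460 higher and 208 lower genes, with 58 higher in both comparisons, 192 higher then lower, 37 lower then higher and 4 lower in both. A fit of only the 2 groups compared left 454, 230, 63, 176, 31 and 4. A 2-fold change alone gave 697 lower genes, 147 lower then higher and 74 lower in both, and an adjusted P of 0.05 gave 108 and 50 for these classes. Without 1 array, the higher genes numbered 575 to 713 and the lower 305 to 418 (second comparison, 600 to 893 and 1014 to 1167). The classes ranged over 79 to 100 higher in both, 248 to 324 higher then lower, 53 to 75 lower then higher and 7 to 26 lower in both. The median over all genes stayed within 0.033 of 0.

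The replicate numbers did not pair the samples throughout. Same-numbered arrays deviated with correlations of 0.282, -0.54 and -0.42 in the first comparison and 0.309, 0.618 and -0.00277 in the second. Differently numbered arrays gave -0.337 to 0.62 in the first and -0.528 to 0.404 in the second. Whether arrays of different numbers share an experiment was not tested. With the number as a block 691 genes were higher and 399 lower (800 and 1207 in the second comparison). The slide as a block gave 690 and 379. Not well above background on any induced HE2 array was the probe of Inhba, so that its fall is a bound, at least 2.87-fold.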

Other observations

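Of 20 genes of glycolysis and the hypoxia response 3 rose and 2 fell, 25% called against 7.16% of all genes. Bnip3, a mitophagy receptor, rose by 1.68 (11.65 to 12.11 in uninduced HE and 13.25 to 14.15 in induced HE2), Ndrg1 by 1.66 and Aldoc, a neural aldolase, by 1.40, which lost its call without induced HE2 array 3 (1.13) or uninduced HE array 1 (1.23). Vegfa, the growth factor of endothelium, fell from 11.99, 12.36 and 12.08 to 10.43, 10.28 and 10.17, by 1.85 (s.e. 0.207, adjusted P = 6.03e-06), and the glucose transporter Slc2a1 fell by 1.17. Without uninduced HE array 2 or 3, or induced HE2 array 2 or 3, the 2 falls were 1. In the second comparison Ndrg1 and Aldoc were lower, by 1.68 and 1.79.

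Of 14 interferon-stimulated genes Oas1a alone was called (7.14%, against 7.16% of all genes), at 2.50, with its probes between 0.39 and 2.50. Of 11 genes of antigen presentation and of 15 of cholesterol synthesis 0 were called in limma. At an unadjusted P below 0.05, 2 (18.2%) and 0 were higher and 0 and 0 lower, where 15.7% of all genes were higher and 11.3% lower. Of 23 TGF-beta and BMP genes 3 fell (13% called against 7.16% of all genes), Bmp6, Inhba and Bmp2 (-1.23). The falls numbered 1 without induced HE2 array 1 or without uninduced HE array 2. For Bmp2 the values were then -0.98 and -1.06, and Inhba lost its call without any 1 induced HE2 array (-1.61 to -1.45) or uninduced HE array 2 (-1.21). Of 11 mast cell genes Hdc, Il1rl1 and the protease Cpa3 (2.96) rose, 27.3% called against 7.16% of all genes. The median of this list was 0.04, with 6 members above 0 and 5 below. Ms4a2, Fcer1a and Mcpt8, which are more specific to mast cells and basophils, were below the level filter, and Tpsab1 had no named probe. Of 11 granule genes Mpo, Lyz1 and Srgn (serglycin, 1.73) rose, again 27.3% called. Srgn lost its call without induced HE2 array 3 (1.48) or uninduced HE array 1 (1.39). Of 8 venous and lymphatic genes Lyve1 rose and Nr2f2 and Pdpn (podoplanin, -2.51) fell, 37.5% called against 7.16% of all genes. Pdpn had probes at -2.51 to -1.32 and was not called without induced HE2 array 1 (-2.14) or uninduced HE array 2 (-1.92). Of 6 transcription factors of epithelial-mesenchymal transition 0 were called, with Twist1 at -1.54 and Snai1 at -1.23. At an unadjusted P below 0.05 in limma 1 of them was higher and 3 lower, against 15.7% and 11.3% of all genes. Without induced HE2 array 3, or uninduced HE array 1 or 3, 1 was called lower.

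Probes with no gene symbol numbered 29099. Of the 15070 that passed the level filter, 304 were higher and 94 lower in induced HE2, 2.64% against 7.16% of the named genes.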
